A study of Gallus gallus with 2 samples.

Results

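The nuclear-encoded genes of oxidative phosphorylation were taken as all gene columns whose names begin with NDUF, UQCR or ATP5, with COX followed by a digit from 4 to 8, or that are named SDHA to SDHD, leaving out only ATP5A1W, the copy on chromosome W. The rule found 72 of the 28190 gene columns of the table. They were 30 subunits of complex I, 8 complex I assembly factors, 3 subunits of complex II, 7 of complex III, 9 of complex IV (NDUFA4 counted there), 14 of complex V, and ATP5S, which encodes coupling factor B, a protein associated with the ATP synthase. The rule uses names only, though it was chosen with earlier results of these data known. Of the 28190 gene columns, 15073 carry an identifier only, so a subunit without a gene name would not be found. Sums and shares by complex are therefore of the members found, not of whole complexes. SDHC was not analysed here.

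Oxidative phosphorylation is carried out by 5 protein complexes of the inner mitochondrial membrane. Complexes I and II take electrons from NADH and succinate, complexes III and IV pass them on to oxygen, and complex V uses the proton gradient so built to make ATP. Most subunits are encoded in the nucleus and imported, while 13 are encoded by the mitochondrial genome, and complex II alone has no mitochondrially encoded subunit. Early embryos and tailbud progenitors of birds are known for active glycolysis beside respiration.

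The cells came from the posterior end of wild-type chicken (Gallus gallus) embryos at 72 h of incubation, with 35 somites in the series title. Embryos were controls or had been given 20 uL of homocysteine, a sulphur amino acid, in 1 of 2 strengths, 19 mM as the high dose and 0.5 mM as the low dose. Dissociated cells were tagged with lipid-anchored sample barcodes, pooled, and captured on the BD Rhapsody microwell system, giving a whole-transcriptome library and a barcode library. No label ties a barcode to a treatment, so controls and treated embryos were not compared and all cells form 1 pooled sample. There were no replicates and no tests: 95% intervals are exact Poisson or binomial intervals, which cover counting error only.

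Of 60000 cell barcodes, 15494 held at least 4000 gene molecules, and 12336 of these had at most 20% of molecules from the 13 mitochondrially encoded genes. These cells had a median depth of 29896 molecules. Clusters made without the members, the mitochondrial genes and the W-linked genes fell into 14 marker-defined classes with 11542 cells (93.6%), and the other 794 cells stayed unnamed. A class is called "-like" because its name rests on at least 3 markers above 2-fold in each cluster. The intermediate mesoderm-like class is the weakest of these names, since the larger of its clusters had 3 such markers but a mean log2 marker fold of -0.18.

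The 72 members gave 16230 molecules per 1000000 gene molecules (CPM), or 1.62% of all gene molecules, in the cells used. A median cell held 446.5 member molecules from 65 different members, and 0 of the 12336 cells had none. By complex, 26.7% of member molecules belonged to complex I, 1.60% to complex II, 10.4% to complex III, 23.0% to complex IV and 36.5% to complex V. The genes were therefore measured in every cell, and the question the classes can answer is how far their level varied from one cell type to another.

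The summed level was highest in hindgut endoderm-like cells and lowest in erythroid-like cells. It was 18205 CPM (95% interval 18153 to 18257, 558 cells) in the former and 13390 CPM (13287 to 13493, 191 cells) in the latter, a ratio of 1.36. Somite-like cells followed at 16952 CPM, endothelium-like at 16779, lateral plate or splanchnic mesoderm-like at 16540, surface ectoderm-like at 16478 and neural tube-like at 16460. The last 3 lay close together, and the intervals of surface ectoderm-like (16439 to 16517) and neural tube-like cells (16429 to 16491) overlapped. The surface ectoderm-like value leaves out an unnamed cluster of 603 cells with 7 raised surface ectoderm markers and 14785 CPM. The first place of hindgut endoderm-like cells was not particular to the members. That class was also highest in the sums of the ribosomal and several metabolic gene lists described below.

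The lower part of the order held intermediate mesoderm-like cells at 15911 CPM, macrophage-like cells at 15783, limb bud mesenchyme-like cells at 15363 and presomitic mesoderm-like cells at 15089. Neural crest-like cells had 14877 CPM (14783 to 14971), neuromesodermal progenitor-like cells 14724 (14683 to 14766) and notochord-like cells 14449 (14331 to 14568). The intervals of intermediate mesoderm-like and macrophage-like cells overlapped, the second being wide with 54 cells (15577 to 15992). Without the erythroid-like class the highest was 1.26 times the lowest.

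**Figure D1:**
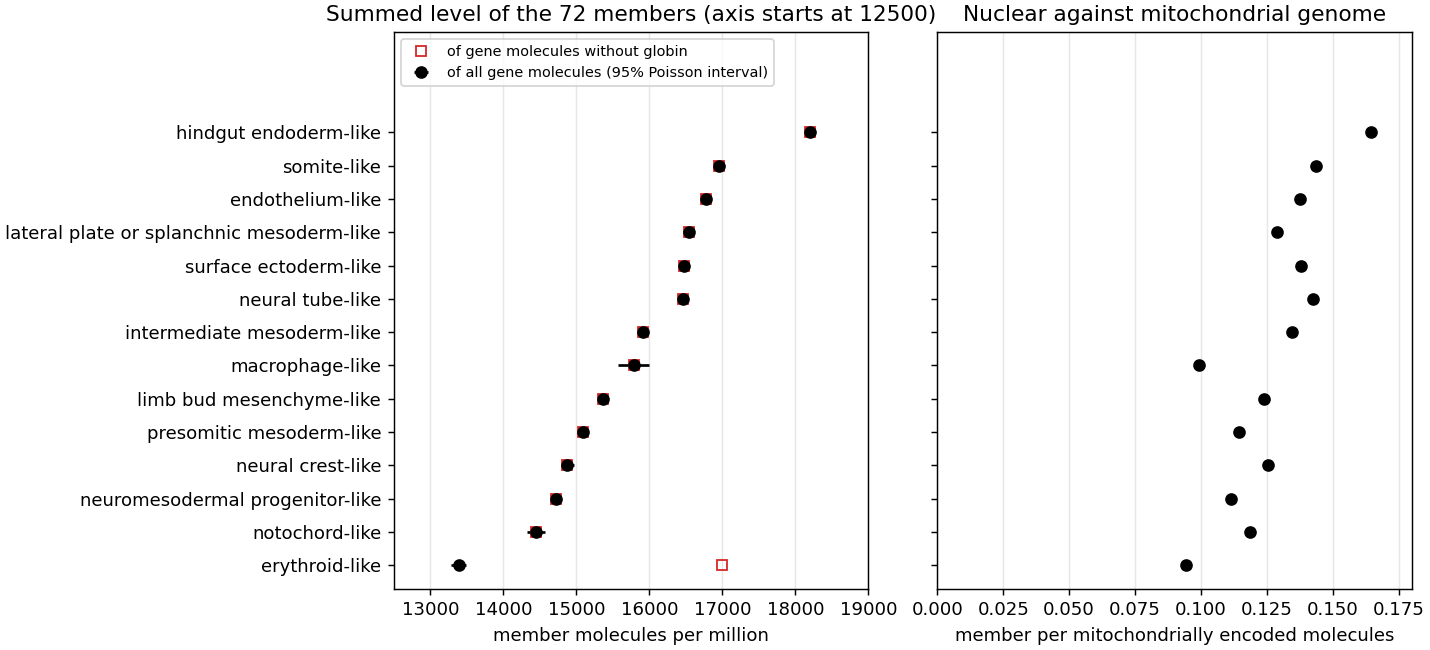
Left, summed member molecules per 1000000 in each of the 14 classes, of all gene molecules (black, 95% Poisson interval) and of gene molecules without globin (red squares, axis not starting at 0). Right, member molecules per mitochondrially encoded molecule. Hindgut endoderm-like cells were highest in both panels at 18205 CPM and 0.165, and erythroid-like cells moved from 13390 to 16991 when globin was left out.

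Depth of the cells moved with the member level, and classes differed in depth. Over all cells used, the sum was 17276 CPM in cells of 4000 to 10000 molecules, 14718 from 10000 to 20000, 14878 from 20000 to 40000, 15925 from 40000 to 60000 and 18317 above that. Hindgut endoderm-like cells had a median of 40244 molecules and neuromesodermal progenitor-like cells 25797. One of the 2 somite-like clusters had a median of 57959 molecules and 17502 CPM, and the other 27754 molecules and 15615 CPM.

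Cells of 20000 to 40000 molecules were therefore compared on their own. Hindgut endoderm-like cells then had 15751 CPM (15641 to 15863) and macrophage-like cells 15787 (15531 to 16046, 31 cells), with overlapping intervals. Endothelium-like cells had 15502 CPM and somite-like cells 15258. At the low end were neuromesodermal progenitor-like cells at 14257, neural crest-like cells at 14115, notochord-like cells at 13701 and erythroid-like cells at 13066. The ratio of hindgut endoderm-like to erythroid-like cells was 1.21, against 1.36 over all depths.

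**Figure D2:**
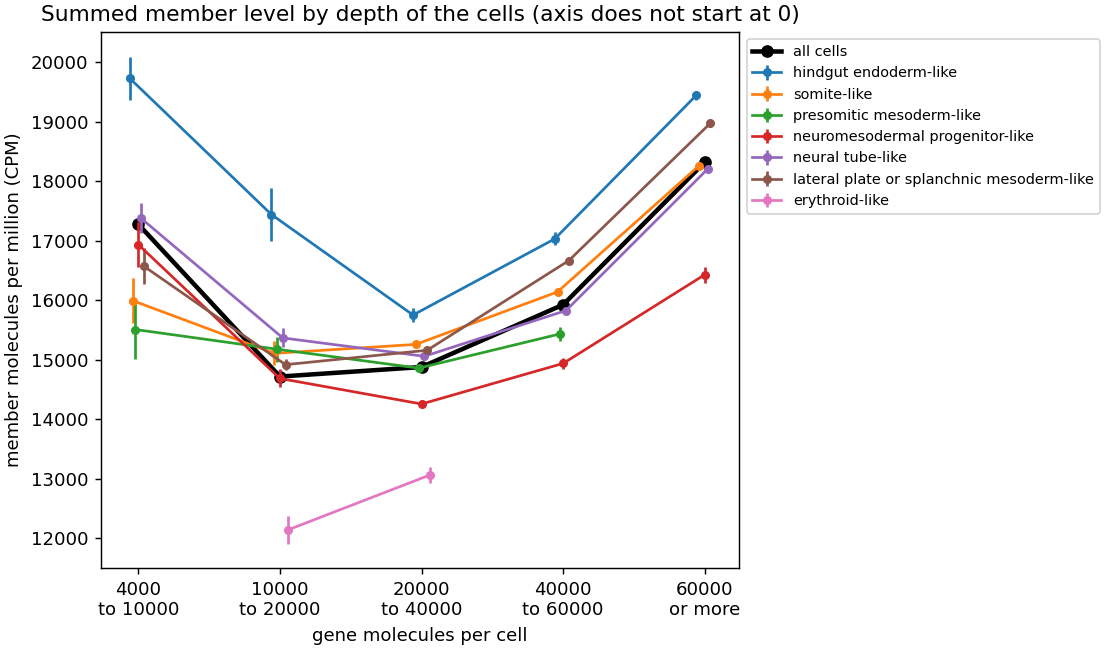
Summed member CPM (vertical axis, not from 0) against depth of the cells in molecules (5 bins), for all cells (black) and for 7 classes, points with 95% Poisson intervals, bins of at least 20 cells. All cells ran from 14718 CPM in the second bin to 18317 in the deepest, and hindgut endoderm-like cells lay above the other classes drawn in all 5 bins. Erythroid-like cells lay lowest in both bins where they had enough cells, with globin counted in the total.

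Single members varied little between classes. The highest class was over 1.5 times the median class for 3 of the 71 members with enough molecules (at least 100 in all and 50 in the highest class), or 4.23%. Of all genes under the same minimum, 57.2% were past that fold, and of genes with at least 10000 molecules 36.8%. Among the 68 members with that many molecules it was 2, or 2.94%. The median member had a highest class 1.21 times the median class, against 1.69 times for all genes and 1.32 times for genes with at least 10000 molecules. The 3 members were SDHA, COX5A and ATP5S, described below. NDUFAF3 alone was under the minimum.

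From highest to lowest class, members ranged from 1.24 times (ATP5L) to 3.91 times (ATP5S), with a median of 1.54, and 10 of the 72 were past 2-fold. Hindgut endoderm-like cells were the highest class for 34 members, macrophage-like cells for 11 and endothelium-like cells for 9. Erythroid-like cells were the lowest class for 32 members, notochord-like cells for 15 and macrophage-like cells for 14. Past 1.5-fold of the median class, hindgut endoderm-like cells had 1 of 72 members higher, against 11.2% of all genes tested there, and 0 lower, against 11.4%. Macrophage-like cells had 2 of 69 members higher, against 12.1%, and 1 lower (NDUFAF6), against 27.3%. At 20000 to 40000 molecules per cell, hindgut endoderm-like cells were highest for 17 members and macrophage-like cells for 21, while erythroid-like cells were lowest for 26. The share of all genes highest or lowest in each class was not computed, either for these counts or for those by complex below.

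**Figure D3:**
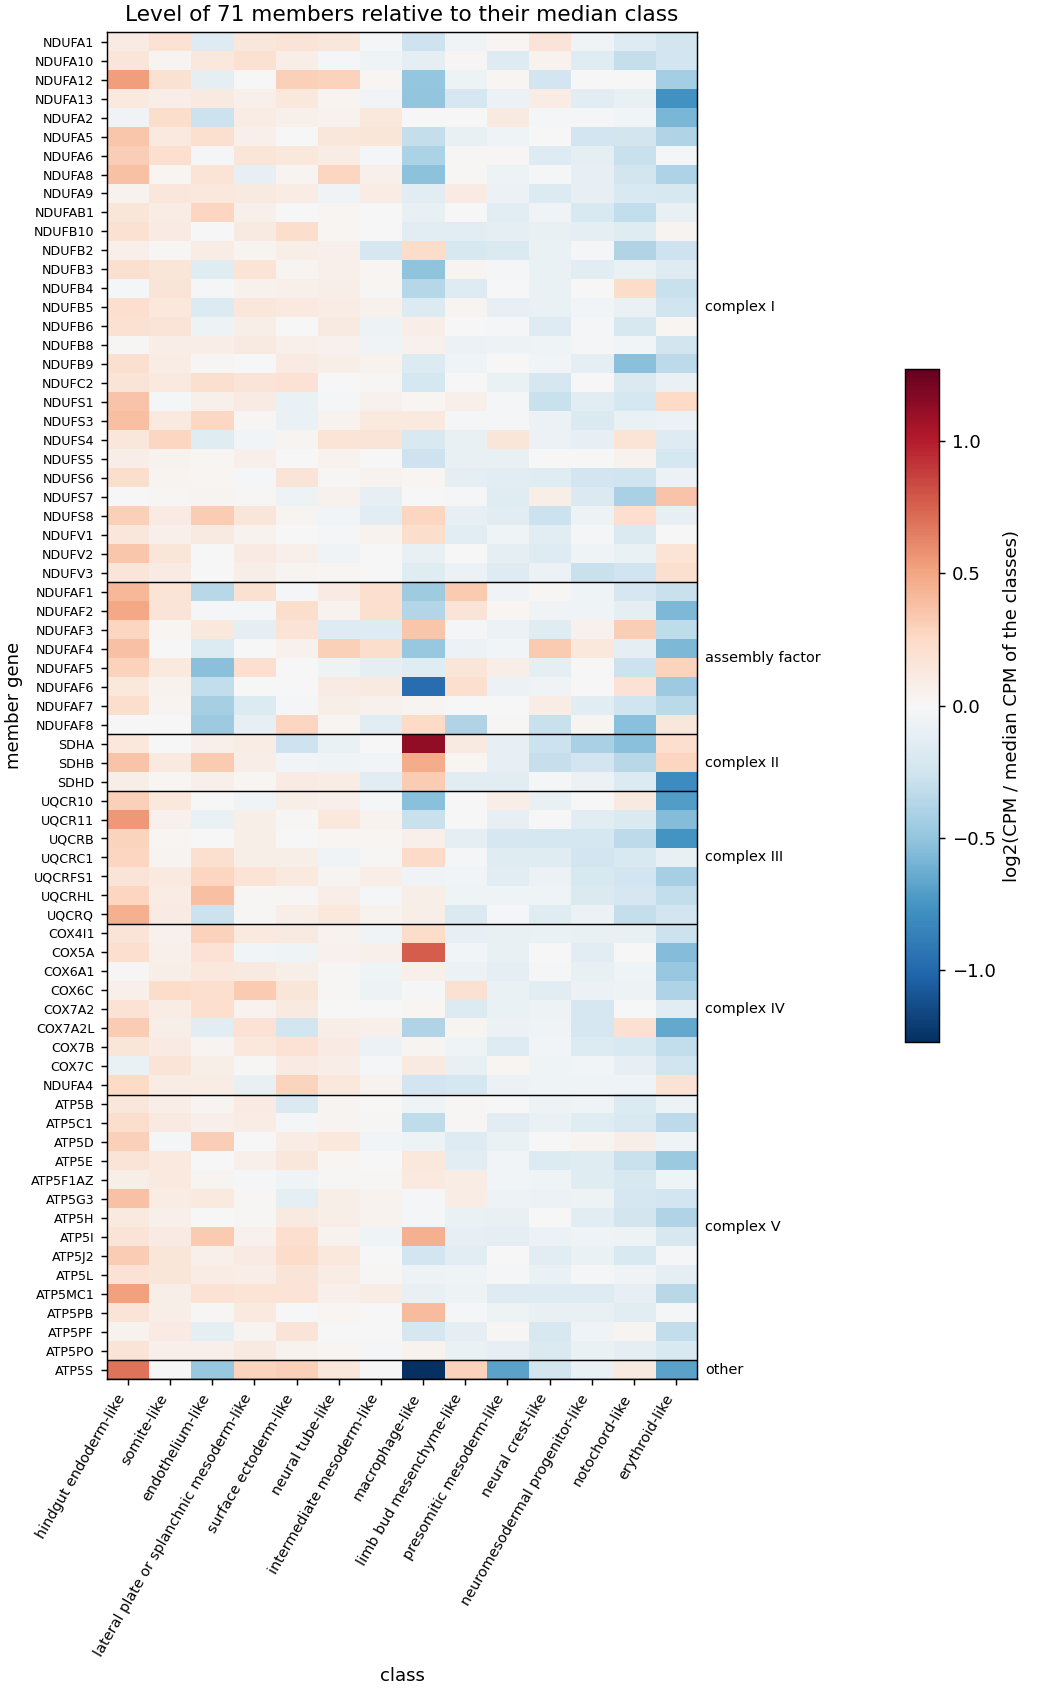
Level of 71 of the 72 members (rows, grouped by complex) in each class (columns, ordered by summed level), as log2 of its CPM over the median CPM of the 14 classes. Over all 72 members, hindgut endoderm-like cells are above the median class for 67 and somite-like cells for 69, erythroid-like cells are below it for most, and SDHA and COX5A stand out as high and ATP5S and NDUFAF6 as low in macrophage-like cells. The share of all genes above the median class was not computed.

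The 30 members of complex I include catalytic core subunits and accessory subunits around them. Their sum ran from 3719 CPM in erythroid-like cells to 4788 CPM in hindgut endoderm-like cells, with a median of 4160. Hindgut endoderm-like cells were highest for 13 of the 30, while macrophage-like and notochord-like cells were each lowest for 9. Values by complex and by member, here and below, are of all gene molecules. Globin, 21.2% of the total in erythroid-like cells, lowers all of them there. NDUFA12, an accessory subunit placed late in assembly, had 142 CPM in macrophage-like cells, a median of 200 CPM and 290 CPM in hindgut endoderm-like cells. That made it 1.45 times the median class in hindgut endoderm-like cells, and 1.30 times at 20000 to 40000 molecules per cell.

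NDUFA8, another accessory subunit, had 158 CPM in macrophage-like cells, a median of 228 CPM and 294 CPM in hindgut endoderm-like cells. Both genes therefore had the same highest and lowest class. At 20000 to 40000 molecules per cell the highest level of NDUFA8 was 258 CPM, in neural tube-like cells, with 252 CPM in hindgut endoderm-like cells. NDUFA13, an accessory subunit also known as GRIM-19 that contributes to cell death in human cells, had 38.7 CPM in erythroid-like cells. Its median was 65.9 CPM and its highest level 72.5 CPM, in surface ectoderm-like cells. At 20000 to 40000 molecules per cell NDUFA13 was highest in neural crest-like cells, at 70.5 CPM. NDUFB8, a membrane arm subunit, was the steadiest of complex I by highest over lowest class among members with enough molecules, from 173 to 218 CPM (1.27 times).

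Some subunits of complex I did not share the low level that erythroid-like cells had with globin counted in the total. NDUFS7, which carries the last iron-sulphur cluster before ubiquinone, had its highest level there, 161 CPM against a median of 125 CPM and 94.3 CPM in notochord-like cells. NDUFV3, an accessory subunit of the NADH-binding module, was also highest in erythroid-like cells, at 124 CPM against a median of 108 CPM. Both genes were named after their values were seen.

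Complex II, succinate dehydrogenase, stood apart from the other complexes in macrophage-like cells. Its 3 members summed to 401 CPM there, against a median of 255 CPM and a lowest level of 208 CPM in notochord-like cells, so macrophage-like cells had 1.57 times the median class. Complex II made up 2.54% of their member molecules, against 1.44% in the lowest class. The same cells had the lowest share of complex I, 23.6% of member molecules, where the highest class had 27.8%. All 3 members were highest in macrophage-like cells.

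SDHA, the flavoprotein that oxidises succinate (chromosome 2, 85282789 to 85298718, GRCg7b), had 152 CPM in macrophage-like cells (132 to 174, from 215 molecules). Its median was 69.3 CPM, erythroid-like cells were next at 80.2 CPM (72.4 to 88.5), and notochord-like cells were lowest at 48.0 CPM. The macrophage-like value was 2.19 times the median class, and its interval did not overlap that of any other class. SDHB, the iron-sulphur subunit, had 112 CPM (95.6 to 131) in macrophage-like cells, a median of 80.9 CPM and 63.2 CPM in notochord-like cells. Its macrophage-like interval overlapped those of hindgut endoderm-like cells at 104 CPM, endothelium-like cells at 102 CPM and erythroid-like cells at 98.0 CPM.

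SDHD, a membrane anchor, had 136 CPM (118 to 157) in macrophage-like cells, a median of 109 CPM and 62.5 CPM (55.7 to 70.0) in erythroid-like cells. Its macrophage-like interval overlapped those of 4 other classes, led by surface ectoderm-like cells at 117 CPM. In erythroid-like cells SDHB lay above its own median while SDHD lay at 0.573 times its own. SDHA made up 37.9% (33.9 to 42.1) of the molecules of the 3 genes in macrophage-like cells and 33.3% (30.6 to 36.1) in erythroid-like cells, and its lowest share was 22.7% in surface ectoderm-like cells. Macrophage-like and erythroid-like cells thus had the highest shares of SDHA, with overlapping intervals.

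The macrophage-like class had a median of 26109 molecules per cell and the highest mitochondrially encoded share, 15.9%. At 20000 to 40000 molecules per cell, complex II was 1.73 times and SDHA 2.38 times the median class in its 31 cells. All of these values rest on 1 cluster of 54 cells, and the number of embryos behind it is not known.

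**Figure D4:**
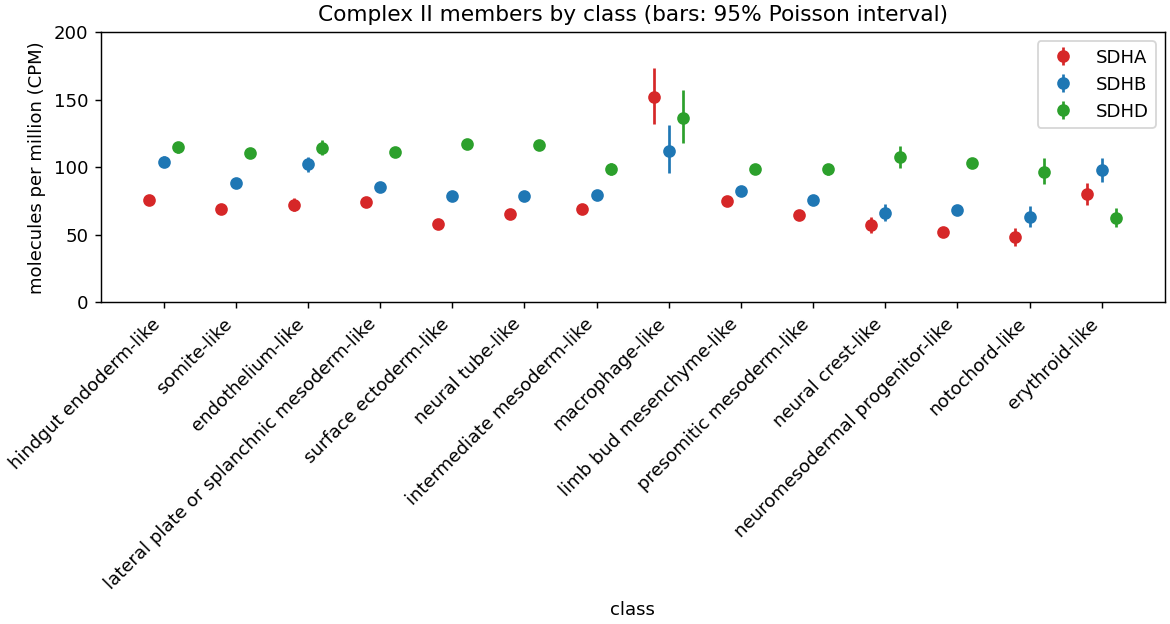
CPM of SDHA, SDHB and SDHD (vertical axis, from 0) in the 14 classes (horizontal axis, ordered by summed member level), with 95% Poisson intervals. SDHA reached 152 CPM in macrophage-like cells against a median of 69.3 CPM, and SDHD was lowest in erythroid-like cells at 62.5 CPM.

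In complex III, the cytochrome bc1 complex, the sum ran from 1256 CPM in erythroid-like cells to 2063 CPM in hindgut endoderm-like cells, 1.64 times. Among complexes I, III, IV and V this was the widest range by all gene molecules, with globin counted in the erythroid-like total. The ranges of the complexes without globin were not computed. Hindgut endoderm-like cells were highest for 5 of its 7 members and erythroid-like cells lowest for 5. UQCR11, a small accessory subunit, had 159 CPM in erythroid-like cells, a median of 233 CPM and 342 CPM in hindgut endoderm-like cells.

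UQCRB, a subunit close to the ubiquinone site, had 98.8 CPM in erythroid-like cells, a median of 167 CPM and 203 CPM in hindgut endoderm-like cells. UQCR10, another small subunit, had 89.1 CPM, 146 CPM and 180 CPM in the same order. UQCRC1, a core protein on the matrix side, varied least of the complex, from 157 CPM in neuromesodermal progenitor-like cells to 226 CPM in hindgut endoderm-like cells, with a median of 186 CPM. It was the member of complex III whose lowest class was not erythroid-like or notochord-like.

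In complex IV, cytochrome c oxidase, the sum was highest in endothelium-like cells, 4004 CPM against a median of 3675 CPM and 2954 CPM in erythroid-like cells. COX5A, a matrix-side structural subunit (chromosome 10, 2419957 to 2424181), had 530 CPM (493 to 569) in macrophage-like cells. Its median was 311 CPM, hindgut endoderm-like cells were next at 361 CPM (354 to 369), and the lowest level was 213 CPM in erythroid-like cells. The macrophage-like value was 1.70 times the median class, did not overlap any other class, and was 1.81 times at 20000 to 40000 molecules per cell.

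COX6C had 547 CPM in lateral plate or splanchnic mesoderm-like cells, a median of 434 CPM and 331 CPM in erythroid-like cells, and lateral plate or splanchnic mesoderm-like cells were again highest at 20000 to 40000 molecules per cell (513 CPM). COX4I1, the ubiquitous form of the largest nuclear subunit, ran from 401 CPM in erythroid-like to 593 CPM in endothelium-like cells. COX6A1, the form of subunit 6A found outside muscle in mammals, ran from 390 CPM in erythroid-like to 597 CPM in endothelium-like cells. The last 2 shared both ends of their order over all depths. At 20000 to 40000 molecules per cell, macrophage-like cells were highest for both. COX4I1 then had 594 CPM there against 544 CPM in endothelium-like cells, and COX6A1 had 583 against 582 CPM. COX7A2, the non-muscle form of subunit 7A, reached 385 CPM in endothelium-like cells, with a median of 332 CPM and 286 CPM in neuromesodermal progenitor-like cells.

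NDUFA4, once counted with complex I and now known as a complex IV subunit, had 318 CPM in surface ectoderm-like cells, a median of 262 CPM and 221 CPM in macrophage-like cells. COX7A2L, a paralog of COX7A2 that helps to join complexes III and IV into supercomplexes, had 83.5 CPM in erythroid-like cells, a median of 131 CPM and 163 CPM in hindgut endoderm-like cells. Of the molecules of COX7A2L and COX7A2 together, COX7A2L held 21.8% (19.9 to 23.7) in erythroid-like cells, 22.9% (19.6 to 26.4) in macrophage-like cells, 23.5% in endothelium-like cells and 23.6% in surface ectoderm-like cells. In the other 10 classes it held 28.0% or more, up to 31.3% in limb bud mesenchyme-like cells.

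In complex V, the ATP synthase, the sum ran from 4999 CPM in erythroid-like to 6850 CPM in hindgut endoderm-like cells, and its share of member molecules stayed between 36.0% and 37.6%, which was narrow beside 21.1% to 25.1% for complex IV. ATP5MC1, a gene of the membrane ring subunit c, had 372 CPM in erythroid-like cells, a median of 475 CPM and 681 CPM in hindgut endoderm-like cells, where it was 1.43 times the median class. ATP5G3, which encodes the same mature subunit c and was named after its values were seen, had 1098 CPM, 1299 CPM and 1686 CPM in the same order. Of the molecules of both, ATP5MC1 held 31.0% (30.7 to 31.4) in surface ectoderm-like cells and 24.7% (24.4 to 25.1) in limb bud mesenchyme-like cells.

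ATP5I, subunit e of the membrane part, was highest in macrophage-like cells at 384 CPM, with a median of 280 CPM and 243 CPM in erythroid-like cells. ATP5E, subunit epsilon, had 273 CPM in erythroid-like cells, a median of 378 CPM and 424 CPM in hindgut endoderm-like cells. ATP5L, subunit g, had the narrowest range of all members, from 98.2 CPM in erythroid-like to 122 CPM in hindgut endoderm-like cells. The catalytic head subunit alpha, ATP5F1AZ, also varied little, from 421 CPM in notochord-like to 526 CPM in macrophage-like cells. Its value leaves out the copy ATP5A1W. Both ATP5I and ATP5F1AZ lie on chromosome Z, as does NDUFAF2, an assembly factor described below. Levels of these genes differed between cells with and without a W-linked transcript, as given below. The share of such cells in each class was not computed.

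ATP5S (chromosome 5, 57547461 to 57552367) had 19.3 CPM (17.7 to 21.1) in hindgut endoderm-like cells, 1.62 times its median of 11.9 CPM. Surface ectoderm-like cells were next at 14.8 CPM (13.6 to 16.0), while presomitic mesoderm-like and erythroid-like cells had 7.47 and 7.46 CPM. The lowest value, 4.95 CPM in macrophage-like cells, rests on 7 molecules (interval 1.99 to 10.2). The 3.91-fold range named above is for that reason poorly measured, while the step from the median to hindgut endoderm-like cells rests on 497 molecules.

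Of the assembly factors of complex I, 5 of 8 were highest in hindgut endoderm-like cells. NDUFAF2, an assembly chaperone and paralog of NDUFA12, had 36.2 CPM in erythroid-like cells, a median of 53.8 CPM and 75.5 CPM in hindgut endoderm-like cells. NDUFAF4 had 26.5 CPM, 39.4 CPM and 51.1 CPM in the same order. NDUFAF6 had 16.3 CPM in macrophage-like cells, a median of 31.9 CPM and 36.9 CPM in limb bud mesenchyme-like cells. NDUFAF7, a methyltransferase, varied least, from 21.5 CPM in endothelium-like to 33.9 CPM in hindgut endoderm-like cells.

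Erythroid-like cells, whose most abundant transcripts are globins, gave an order that depended on what the members were set against. Globin molecules were 21.2% of all gene molecules there. Of 1000000 gene molecules without globin, 16991 were member molecules in erythroid-like cells, and without globin and mitochondrially encoded genes it was 20727, the highest of the 14 classes, with hindgut endoderm-like cells at 20473. The ratio of erythroid-like to all other cells was 0.823 of all gene molecules, 1.04 without globin and 1.12 without globin and mitochondrially encoded genes, so its direction turned.

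Within the erythroid-like total, the members were spread unevenly. The median member was at 0.845 times its median class, while the median of all genes tested there was 0.643. ATP5S, COX7A2L, NDUFA13, NDUFA2, SDHD, UQCR10 and UQCRB, 7 of 72 members, were lower by more than 1.5-fold, against 52.9% of all genes, and 0 were higher by that fold, against 5.82%. These folds are of all gene molecules, so the 21.2% of globin lowers each of them there, for members and other genes alike. Globin was at most 0.0215% of gene molecules in any other class, so leaving it out hardly moves their levels. In erythroid-like cells it raises each fold as it raised the member sum, from 13390 CPM to 16991 without globin. The lowest of the 7 folds was that of SDHD, at 0.573. With that rise even SDHD is lower by less than 1.5-fold, so the 7 pass this fold only with globin counted. The share of all genes lower by that fold without globin was not computed.

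Along the body axis, neuromesodermal progenitor-like, presomitic mesoderm-like and somite-like cells are taken as consecutive states of paraxial mesoderm. This order rests on the class names, and SOX2 was not counted as a raised marker in any cluster of the first class. The member sum was 14724, 15089 and 16952 CPM in that order, and neuromesodermal progenitor-like cells had 0.869 times the level of somite-like cells (0.866 to 0.872). Within the somite-like class, the deeper cluster led by RIPPLY2, a presomitic mesoderm marker, had 17502 CPM (889 cells). The other somite-like cluster had 15615 CPM (715 cells), nearer to the presomitic mesoderm-like value. Of the 72 members, 8 were above their median class in neuromesodermal progenitor-like cells, 15 in presomitic mesoderm-like cells and 69 in somite-like cells. None was past 1.5-fold in either direction in the first or the last class, where 11.7% and 7.1% of all genes were higher by that fold and 2.97% and 2.21% lower. In presomitic mesoderm-like cells 0 were higher by that fold, against 7.7% of all genes, and ATP5S was lower, 1 of 72 against 9.41%. In the order of the axis, the median member was at 0.938, 0.951 and 1.07 times its median class, and the median of all genes tested at 1.02, 0.995 and 1.01. The share of all genes above the median class was not computed at any depth.

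The 3 classes differed in depth in the same order, with medians of 25797, 26447 and 44757.5 molecules. At 20000 to 40000 molecules per cell, the sums were 14257, 14860 and 15258 CPM, the same order over a narrower range, and the ratio of the first to the last was 0.934. Members above the median class were then 22, 37 and 49 of 72. With classes called at all depths from each cell's own marker molecules instead of clusters, the ratio was 0.986.

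Nuclear members were set against the 13 mitochondrially encoded subunits, a ratio that does not depend on the total. There were 0.165 member molecules per mitochondrially encoded molecule in hindgut endoderm-like cells, 0.144 in somite-like and 0.143 in neural tube-like cells. The ratio was 0.112 in neuromesodermal progenitor-like, 0.0992 in macrophage-like and 0.0943 in erythroid-like cells. The highest was 1.75 times the lowest, a wider range than that of the member sum.

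The mitochondrially encoded sum alone was lowest in hindgut endoderm-like cells, at 110668 CPM, and highest in macrophage-like cells, at 159137 CPM. The ratio also moved with single clusters. A neural tube-like cluster of 114 cells with a median depth of 5847 molecules had 1.99% mitochondrially encoded molecules and 0.924 members for each of them. At 20000 to 40000 molecules per cell the range of the ratio narrowed to 1.30 times, with neural tube-like cells highest and erythroid-like cells lowest.

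The 3158 barcodes with over 20% mitochondrially encoded molecules, left out above, had 8175 member CPM, or 12786 per 1000000 non-mitochondrial molecules, against 18487 in the cells used. Barcodes with under 500 detected genes, taken here as free RNA, had 16985 member CPM. Free RNA thus carried the members at about the level of the cells, with 26.3% of its member molecules in complex I and 1.39% in complex II. Its part in the class values was not tested.

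Other gene lists of energy metabolism, chosen with earlier results of these data known, were measured in the same way. Single genes named from these lists were picked with their values seen. The counts past 1.5-fold given for these lists stand beside 57.2% of all genes under the same minimum, and 36.8% of genes with at least 10000 molecules. Of 16 genes of glycolysis and lactate transport, 5 were past 1.5-fold from median to highest class, and their sum ran from 3066 CPM in erythroid-like to 10186 CPM in hindgut endoderm-like cells, 3.32 times. LDHA, which makes lactate from pyruvate, had 624 CPM in macrophage-like cells against a median of 86.7 CPM. LDHB went the other way and was lowest in macrophage-like cells, at 449 CPM against a median of 1177 CPM. Of 14 genes of the tricarboxylic acid cycle and its entry, 4 were past that fold, among them DLST, a subunit of the oxoglutarate dehydrogenase complex, with 50.9 CPM in macrophage-like cells against a median of 30.9 CPM. Their sum varied 1.39 times, close to the 1.36 times of the members.

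Among 25 electron carriers and assembly genes outside the naming rule that had enough molecules, 5 were past 1.5-fold. The sum of all 28 such genes with a column varied 1.32 times, less than that of the members. COX17, the copper chaperone of complex IV, had 133 CPM in endothelium-like cells against a median of 56.5 CPM, and SCO1, which passes that copper on, had 145 CPM in macrophage-like cells against 70.1 CPM. CYCS, cytochrome c, had 352 CPM in hindgut endoderm-like cells and a median of 275 CPM. Of 14 genes of the outer membrane, carriers and protein import, 3 were past the fold, and of 16 regulators, 7 were. The regulators had the largest share of these lists, 43.75%, which was below the 57.2% of all genes.

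Ribosomal and mitochondrially encoded genes had few or none past that fold. Of the mitochondrial ribosome 4 of 65 genes were past 1.5-fold, of the cytosolic ribosome 1 of 66 and of the mitochondrially encoded subunits 0 of 13. Hindgut endoderm-like cells had the highest sums of the mitochondrial ribosome (1.35 times the lowest class) and the cytosolic ribosome (1.34). The same held for the tricarboxylic acid cycle (1.39), carriers and assembly genes (1.32) and membrane and import genes (1.44), beside 1.36 for the members. The regulators and the mitochondrially encoded subunits had other highest classes. The median highest-over-median ratio was 1.21 for the members, 1.22 for the mitochondrial ribosome, 1.18 for the cytosolic ribosome, 1.22 for carriers and assembly genes, 1.24 for membrane and import genes, 1.28 for the tricarboxylic acid cycle, 1.30 for the mitochondrially encoded subunits, 1.33 for regulators and 1.44 for glycolysis. Among the regulators, PPARGC1A, a coactivator of mitochondrial genes, had 11.2 CPM in hindgut endoderm-like cells against a median of 3.29 CPM. TFAM, which packages and transcribes mitochondrial DNA, had 183 CPM in hindgut endoderm-like and 50.9 CPM in erythroid-like cells. These 2 genes do not stand for the list. The sum of the 16 regulators was highest in neural crest-like cells, at 1345 CPM. In hindgut endoderm-like cells it was 1161 CPM, slightly below the median class at 1168 CPM.

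The lipid barcodes SBC2, SBC3 and SBC7, each of an unstated tissue or treatment, marked 1416, 4373 and 1551 cells. Their member sums were 15823, 16492 and 17393 CPM, and their median depths rose in the same order, 29704, 32897 and 45844 molecules. From lowest to highest barcode, 0 of the 72 members were past 1.5-fold, against 11% of all genes, and 7 were past 1.2-fold, against 37%. The 7 were NDUFS4, COX7C, ATP5I, ATP5F1AZ, NDUFAF2, ATP5S and NDUFB3. The first 5 are all the members that the reference places on chromosome Z, and each of them was lowest in SBC2.

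COX7C, a small subunit of complex IV, had 800 CPM in SBC2 cells, 1007 CPM in SBC3 cells and 1094 CPM in SBC7 cells. NDUFS4, an accessory subunit needed for a stable complex I, had 135, 172 and 185 CPM. ATP5F1AZ had 400, 507 and 526 CPM. In each case SBC2 lay furthest from the others.

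In birds, females carry a Z and a W chromosome and males a pair of Z, and most Z genes are only partly balanced between the sexes. HINTW, a multicopy gene of chromosome W, was therefore used to divide the SBC2 cells of at least 20000 molecules into 534 with at least 2 HINTW molecules and 537 with none, leaving out 56 with 1. The total of the members hardly differed, 15988 CPM in cells with HINTW and 15968 CPM without. The 2 sets are cells of different embryos, whose number and treatment are not known.

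ATP5F1AZ, which encodes the alpha subunit of complex V (chromosome Z, 2484032 to 2492037, GRCg7b), had 321 CPM in cells with HINTW and 492 CPM in cells without, a ratio of 0.653 (0.633 to 0.672). COX7C (chromosome Z, 61933584 to 61936102) had 647 and 987 CPM, a ratio of 0.656 (0.642 to 0.670). NDUFS4 (chromosome Z, 16643256 to 16689316) had 111 and 165 CPM, a ratio of 0.670 (0.636 to 0.705). All were lower with HINTW, and none of the intervals reached 1.

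NDUFAF2 (chromosome Z, 19521240 to 19567617) had 40.8 and 58.8 CPM, a ratio of 0.694 (0.637 to 0.756). ATP5I (chromosome Z, 54171951 to 54173799) had 210 and 296 CPM, a ratio of 0.709 (0.683 to 0.737). The 5 Z-linked members were the only ones of 68 with at least 1000 molecules that were lower by more than 1.2-fold, against 10.1% of all genes, and 0 were higher by that fold, against 7.58%. The 60 autosomal members ran from 0.887 to 1.18 times, with a median of 1.04, while all autosomal genes had a median of 0.998.

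Among 271 Z genes in all, the median ratio was 0.710, with the 10th percentile at 0.612 and the 90th at 0.958, so the 5 members lay within the range of their chromosome. The 2 sets differed in their classes, and the ratios were as low within 1 class. Within lateral plate or splanchnic mesoderm-like cells of SBC2 (266 with HINTW and 135 without), the 5 ratios ran from 0.547 to 0.675. In SBC3, where 91 cells had HINTW and 3590 had none, they ran from 0.732 to 0.869. The SBC3 cells with HINTW were deeper, with a median of 45818 molecules against 36948.5. Doublets were not removed, and whether they or wrongly tagged cells were among these cells was not tested.

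**Figure D5:**
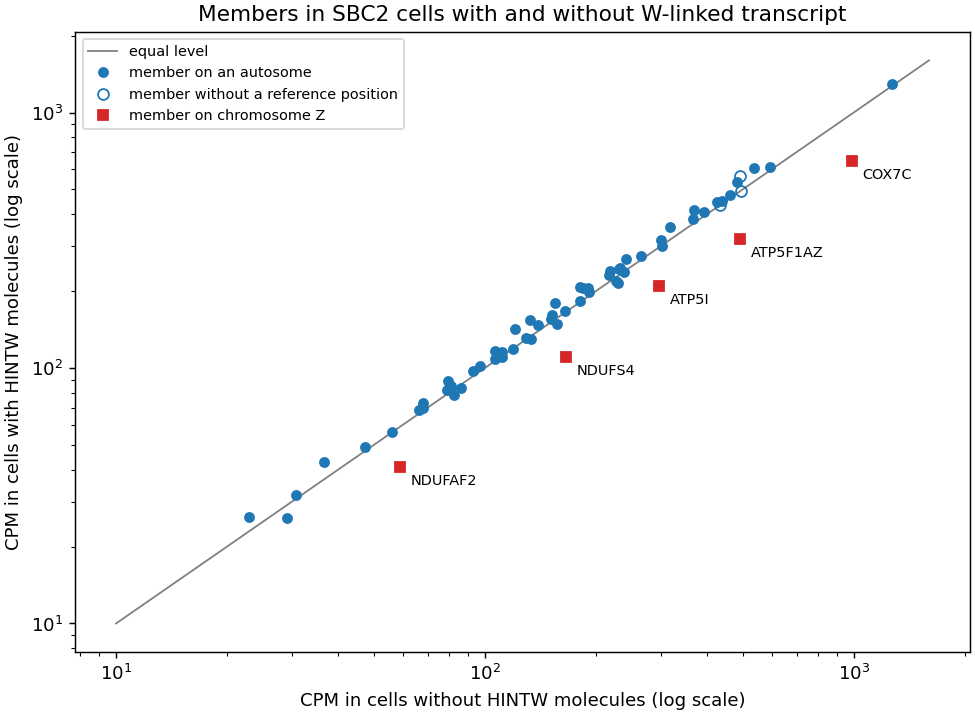
CPM of 68 members in SBC2 cells with HINTW molecules (vertical axis, 534 cells) and without (horizontal axis, 537 cells), both on log scales, with the line of equal level. The 5 members on chromosome Z (red squares) lie below the line at ratios of 0.653 to 0.709, and the 60 autosomal members lie along it.

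ATP5A1W, by its name the W copy of the same alpha subunit, was left out of the members. It had 194 CPM in SBC2 cells with HINTW and 4.89 CPM in those without. ATP5A1W and ATP5F1AZ together gave 515 CPM with HINTW and 497 CPM without, a ratio of 1.04. ATP5A1W held 37.6% of the molecules of both in cells with HINTW. The 2 copies are alike in sequence, so reads may have been assigned to the wrong one, and how the counting treated such reads is not given in the sources used here.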

How the data were processed

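The table came, per the file headers, from the BD Rhapsody WTA Analysis Pipeline 1.11 on GRCg7b with Ensembl release 107 annotation, with intronic reads included and the cell number set to exactly 60000. The values are raw, as deposited by the authors: each is a count of the different molecules seen of a gene in a cell. The submitters' processing notes name R 3.6.2 and Seurat, whose role is not stated.

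Cells had at least 4000 gene molecules and at most 20% mitochondrially encoded ones. They were scaled to 10000, log-transformed and clustered on 2000 variable genes, 30 principal components and 15 neighbours (scanpy 1.11.5, leidenalg 0.10.2, resolution 1, Python 3.11.15). A cluster took the class with the highest mean marker log2 fold, given at least 3 markers above 2-fold in 10% of its cells, unless another class led its top 10 genes. Doublets were not removed. Scrublet marked 2287 cells, and leaving out the 10% with the highest score was an alternative. Molecules were summed per class and divided by all gene molecules of the class (CPM). With 1 pooled sample, no test was made. The members, markers, lists and thresholds were chosen with earlier results of these data known.

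Genes named were, per complex and for the assembly factors, the 3 with the largest and the 1 with the smallest ratio of highest to lowest class, given at least 50 molecules in the highest class and 20 expected in each, then isoform sets, Z-linked members and the 5 most different between barcodes. Others are said to be picked from their values. A barcode needed 10 molecules and 3 times the next. Positions are RefSeq's on GRCg7b, where 69 of 72 members matched by name. The calculation of class ratios was checked on simulated counts of known fold. 1 member that the sums and counts include is left out of the plot of single members and not reported here by itself.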

Additional observations from a re-analysis of the deposited data

Results flagged for a closer look

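Lipid barcodes SBC4, SBC5 and SBC8 entered no comparison above, and they held 18889, 4242 and 4587 molecules over all cell barcodes. They were flagged because barcode columns that no comparison used held molecules. No label says whether these barcodes were added to any cells, and no member value was computed from them.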

How the results depend on the processing

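The ratios of the highest to the lowest class in the member sum and of nuclear to mitochondrially encoded molecules, the erythroid-like and the progenitor to somite ratios, and the count of members past 1.5-fold were computed under 14, 13, 12, 10 and 14 alternatives. Hindgut endoderm-like cells were highest in 10 of 14 and erythroid-like cells lowest in 9. The member sum ratio of 1.36 was between other classes in some settings. It was 1.26 with at most 10% mitochondrially encoded molecules (erythroid-like over limb bud mesenchyme-like) and also without globin and mitochondrially encoded genes (erythroid-like over notochord-like), 1.39 at Leiden resolution 0.5 (intermediate mesoderm-like, the weakest name, over erythroid-like), 1.18 within SBC2 (hindgut endoderm-like over limb bud mesenchyme-like) and 1.17 within SBC7 (somite-like over limb bud mesenchyme-like). Between hindgut endoderm-like and erythroid-like cells it was 1.30 with classes from each cell's own markers, 1.41 without the top Scrublet scores, 1.38 as a mean over cells, 1.39 without assembly factors and Z-linked members, and 1.41 within SBC3. The nuclear to mitochondrial ratio of 1.75 between the same classes was 1.73 at 10000 molecules or more, 1.71 with another seed, 1.56 with each cell's own markers, 1.88 without the top Scrublet scores, 1.78 with fewer members and 1.86 within SBC3. Between other classes it was 2.15 with no mitochondrial limit (neural tube-like over presomitic mesoderm-like), 1.37 with at most 10% (erythroid-like over limb bud mesenchyme-like), 2.02 at resolution 0.5 (intermediate mesoderm-like over erythroid-like), 1.32 within SBC2 (hindgut endoderm-like over endothelium-like) and 1.29 within SBC7 (somite-like over limb bud mesenchyme-like).

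The erythroid-like ratio of 0.823 turned to 1.19 with at most 10% mitochondrially encoded molecules, 1.12 without globin and mitochondrially encoded genes, and 1.04 without globin alone, an alternative chosen after seeing the data. It was 0.833 with no mitochondrial limit, 0.802 without the top Scrublet scores and 0.805 within SBC3. The progenitor to somite ratio of 0.869 stayed below 1 in all 10, at 0.819 with 10000 molecules or more, 0.925 at resolution 0.5, 0.856 with another seed, 0.986 with each cell's own markers, 0.883 without globin and mitochondrially encoded genes and 0.876 within SBC3. The count of 3 members became 1 with 10000 molecules or more, with each cell's own markers, without the top Scrublet scores and within SBC2 and SBC3, and 0 with at most 10% mitochondrially encoded molecules and within SBC7. The macrophage-like class, which carries SDHA and COX5A, did not reach 50 cells in any of these 7 settings and was not among their classes. The count was 5 at resolution 0.5, and 11 without globin and mitochondrially encoded genes. The share of all genes past that fold, 57.2% as reported, was not computed under any alternative, so these counts have no such comparison. In cells of 20000 to 40000 molecules, also chosen after seeing the data, the 4 ratios were 1.21, 1.30 (neural tube-like over erythroid-like), 0.876 and 0.934. Globin was counted in the 1.21 and the 0.876 of these cells. The count there was 1 over 13 classes without the macrophage-like class, whose 31 cells had SDHA at 2.38, COX5A at 1.81, SDHB at 1.73 and ATP5I at 1.60 times the median class. The cause of the other shifts was not tested.

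The macrophage-like class kept at least 50 cells in 5 alternatives where single genes were computed, and SDHA (2.11 to 2.30) and COX5A (1.66 to 1.78) were past 1.5-fold in all 5. ATP5S was past it in 10 of 12 (1.05 to 1.71). The Z-linked ratios in SBC2 ran from 0.640 to 0.711 with at least 10000 molecules per cell or at least 5 HINTW molecules, settings likewise added. No paired analysis was possible because all cells form 1 pooled sample. With at most 10% mitochondrially encoded molecules or within SBC2 and SBC7, some ratios gave no value because a class had under 50 cells. Depth limits members of low level such as NDUFAF3, NDUFAF8 and ATP5S, and no interval covers differences between embryos.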

Other observations

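The 191 cells of an unnamed shallow cluster, with a median of 5636 molecules, had 20139 member CPM and 6.42% mitochondrially encoded molecules. The other unnamed cluster had 603 cells and 14785 member CPM.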
